A study of Mus musculus with 74 samples.

Results

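Genes of tissue-resident and alternatively activated macrophages were followed through SOD1-G93A disease in cells taken from the sciatic nerve and from the spinal cord. The 10 genes were Mgl2, Clec10a, Mrc1, Cd163, Folr2, Lyve1, Cbr2, Retnla, Chil3 and Arg1. They were picked by symbol, and all 10 were found among the 23297 features with a symbol in both deposited tables, the 51 non-grafted libraries and the 23 grafted ones. The choice was made with earlier results of these data known, nerve macrophages against microglia included, so that contrast is given below as a description with no test.

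The mice were female. G93A mice carried a mutant human SOD1 transgene on a C57BL/6J background and are a model of amyotrophic lateral sclerosis. The controls for microglia were C57BL/6J mice (B6) and mice carrying the wildtype form of the human gene (WT) at ages matched to onset and to end stage. Cells were prepared in the cold without enzymes and selected with CD11b magnetic beads, either from 1 spinal cord (microglia) or from both sciatic nerves of 1 mouse (nerve macrophages). The nerves of 2 mice were pooled for each pre-symptomatic nerve library. Mean ages were 50.8 days before symptoms, 105 at onset, 152.6 at the early symptomatic stage and 169.4 at end stage in G93A mice. For onset and end-stage age they were 109.8 and 165.6 days in B6 mice, and 107.3 and 165.4 days in WT mice. Non-grafted nerve macrophages comprised 3 pre-symptomatic, 3 onset, 4 early symptomatic and 4 end-stage G93A libraries. A further 4 libraries of end-stage age are described as WT in one label and as G93A in the title, source and strain, and are called "described as WT" here. Non-grafted microglia comprised 4, 5, 4 and 4 G93A libraries in the same order, and 4 libraries for each control and age. In the grafted series, every recipient was a G93A mouse that had received G93A or wildtype human SOD1 bone marrow at onset. Its cells were taken at the early symptomatic stage or at end stage, with 3 libraries for each marrow, stage and tissue except 2 nerve libraries for WT marrow at the early stage. The labels do not give how many host cells remained after grafting.

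All values are FPKM, fragment counts per length of gene and per library, a unit scaled to gene length. Read depth is unknown, and a value listed at 0 may be a gene not estimated. CD11b beads also take neutrophils and monocytes, and the non-grafted nerve libraries held much neutrophil RNA: the 11 neutrophil markers summed to 76498 to 214657 FPKM and the 10 pan-macrophage markers to 538 to 4175 FPKM, with all 11 and all 10 detected in every nerve group. Pre-symptomatic replicate 2 stood apart in the nerve with the highest macrophage sum, and replicate 1 with one of the lowest, 603 FPKM. The G93A microglia held their own markers, 4430 to 18437 FPKM summed over 9 genes, but the pre-symptomatic libraries also held 27769 to 32335 FPKM of 7 oligodendrocyte markers against 1831 to 11227 at end stage. Among microglia, 4 libraries had S100a8, a neutrophil calcium-binding protein, above 10000 FPKM: onset replicate 5, end-stage replicate 4, and WT end-stage replicates 1 and 2. In bulk RNA, fewer cells of a type and less RNA per cell cannot be told apart.

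Macrophages that settle in a tissue carry lectins and scavenger receptors that clear sugars, haemoglobin and debris, and in barrier tissues and nerve they differ from the microglia of the cord in many of these surface proteins. Interleukin-4 and interleukin-13 act through the factor STAT6 and turn on a second set of genes in mouse macrophages, the alternative activation programme, of which arginase, the resistin-like protein and chitinase-like proteins are the usual readouts. Mgl2 and Clec10a encode a pair of closely related lectins that bind galactose-type sugars, Mrc1 the mannose receptor, Cd163 the haptoglobin-haemoglobin scavenger receptor, Folr2 a folate receptor and Lyve1 a hyaluronan receptor shared with lymphatic endothelium. Cbr2 encodes a carbonyl reductase. Retnla and Chil3 encode secreted proteins, RELMα and Ym1, and Arg1 the enzyme that splits arginine into ornithine and urea. Mgl2 also marks some dendritic cells, and Chil3 is also made by neutrophils and their precursors.

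The results below turn mainly on Retnla, Chil3 and Mgl2, so the 250 bases before the start of each are printed, 5′ to 3′ on the gene's strand, from RefSeq (GRCm38.p6, the build named mm10 in the tables). RefSeq promoter entries were found for 7 of the 10 genes. Capitals mark matches, on either strand, to 6 motifs: TTC and GAA with 4 bases between them (STAT6), TTCNNNGAA (other STAT factors), GAGGAA (PU.1), TTGCNNCAA (C/EBP), TGANTCA (AP-1) and TATAAA.
Retnla, chr16:48842359-48842608, plus strand: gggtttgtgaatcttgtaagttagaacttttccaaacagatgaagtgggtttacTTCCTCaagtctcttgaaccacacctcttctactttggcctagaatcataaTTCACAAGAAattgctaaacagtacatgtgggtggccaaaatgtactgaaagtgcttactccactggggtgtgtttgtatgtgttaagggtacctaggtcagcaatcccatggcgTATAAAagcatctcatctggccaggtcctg
Chil3, chr3:106167565-106167814, minus strand: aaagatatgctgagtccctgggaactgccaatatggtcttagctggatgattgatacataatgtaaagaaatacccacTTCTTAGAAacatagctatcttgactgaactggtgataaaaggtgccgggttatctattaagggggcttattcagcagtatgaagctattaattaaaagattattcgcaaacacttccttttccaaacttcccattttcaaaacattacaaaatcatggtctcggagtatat
Mgl2, chr11:70130107-70130356, plus strand: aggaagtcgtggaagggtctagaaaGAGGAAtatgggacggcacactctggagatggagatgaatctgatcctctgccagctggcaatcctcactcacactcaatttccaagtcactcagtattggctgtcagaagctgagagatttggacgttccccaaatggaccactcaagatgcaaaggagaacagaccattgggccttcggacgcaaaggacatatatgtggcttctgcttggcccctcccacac
The Retnla stretch held the STAT6 spacing TTCACAAGAA starting 145 bases before the gene's start, a PU.1 match on the other strand from 196 to 191 and a TATA box from 30 to 25. The Chil3 stretch held TTCTTAGAA from 172 to 164, and the Mgl2 stretch a PU.1 match from 225 to 220. The distances count from the RefSeq start. For Retnla the deposited table places the gene's start further upstream, so the end of its stretch, the TATA match included, lies inside the gene as placed in that table. No match overlapped another in these 3 stretches. Over the same window of 32851 promoter entries, 5.85% held the STAT6 motif, 7.02% the shorter STAT motif, 23.3% GAGGAA, 1.74% TTGCNNCAA, 6.75% TGANTCA and 12.4% TATAAA, so these matches are descriptions of the letters and not sites.

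The genes are spread over the genome: Mgl2 (chr11:70130357-70137548) and Clec10a (chr11:70166623-70170836) are neighbours on the plus strand of chromosome 11, where Cbr2 also lies (chr11:120729485-120732021, minus strand). Retnla is at chr16:48842551-48844461 (plus strand) and Chil3 at chr3:106147554-106167564 (minus strand). Of the 50-base windows of the longest GENCODE vM21 coding transcript, 18.5% of Chil3 occurred also in Chil4 and 15.3% of Mgl2 in Clec10a, while 0 of 550 of Retnla occurred in Retnlg. Reads of Chil3 and Mgl2 could thus partly be shared with those partners. Listed Chil4 was 1.19% to 1.91% of Chil3 in the non-grafted nerve libraries.

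Before symptoms, most of these genes were high in nerve macrophages and near 0 in microglia. Mgl2 was at 18.7, 571 and 141 FPKM in the 3 pre-symptomatic nerve libraries and at 0.07, 1.5, 0.40 and 0.55 FPKM in the 4 microglia libraries. Retnla was at 6.73, 14374 and 981 FPKM in the nerve, and in microglia was listed at 0 in 3 libraries and at 0.05 FPKM in the fourth. Chil3 was at 6993, 2541 and 4663 FPKM in the nerve and between 1.02 and 17.9 FPKM in microglia. Every nerve library was above every microglia library for 8 of the 10 genes before symptoms, the exceptions being Lyve1 and Arg1. Among all genes with a mean of 1 FPKM or more, 23.7% showed that order, and nothing is read from the count because the genes were chosen with this contrast in view.

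The order held for fewer genes at later stages, in groups of other sizes. Every nerve library lay above every microglia library for 6 genes at onset (7.65% of all genes), 6 at the early symptomatic stage (16.3%) and 3 at end stage (12.9%), the last 3 being Mgl2, Retnla and Chil3. In the libraries of end-stage age from WT and described-as-WT mice, 5 genes showed it (14.1%). Folr2 had the opposite order of medians at end stage, 1.12 FPKM in the nerve and 4.19 FPKM in microglia, with overlapping libraries. In the grafted series the order held for 5, 4, 4 and 4 genes (21.4%, 28.2%, 24.3% and 17% of all genes) for G93A marrow at the early and end stages and WT marrow at the early and end stages.

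**Figure D1:**
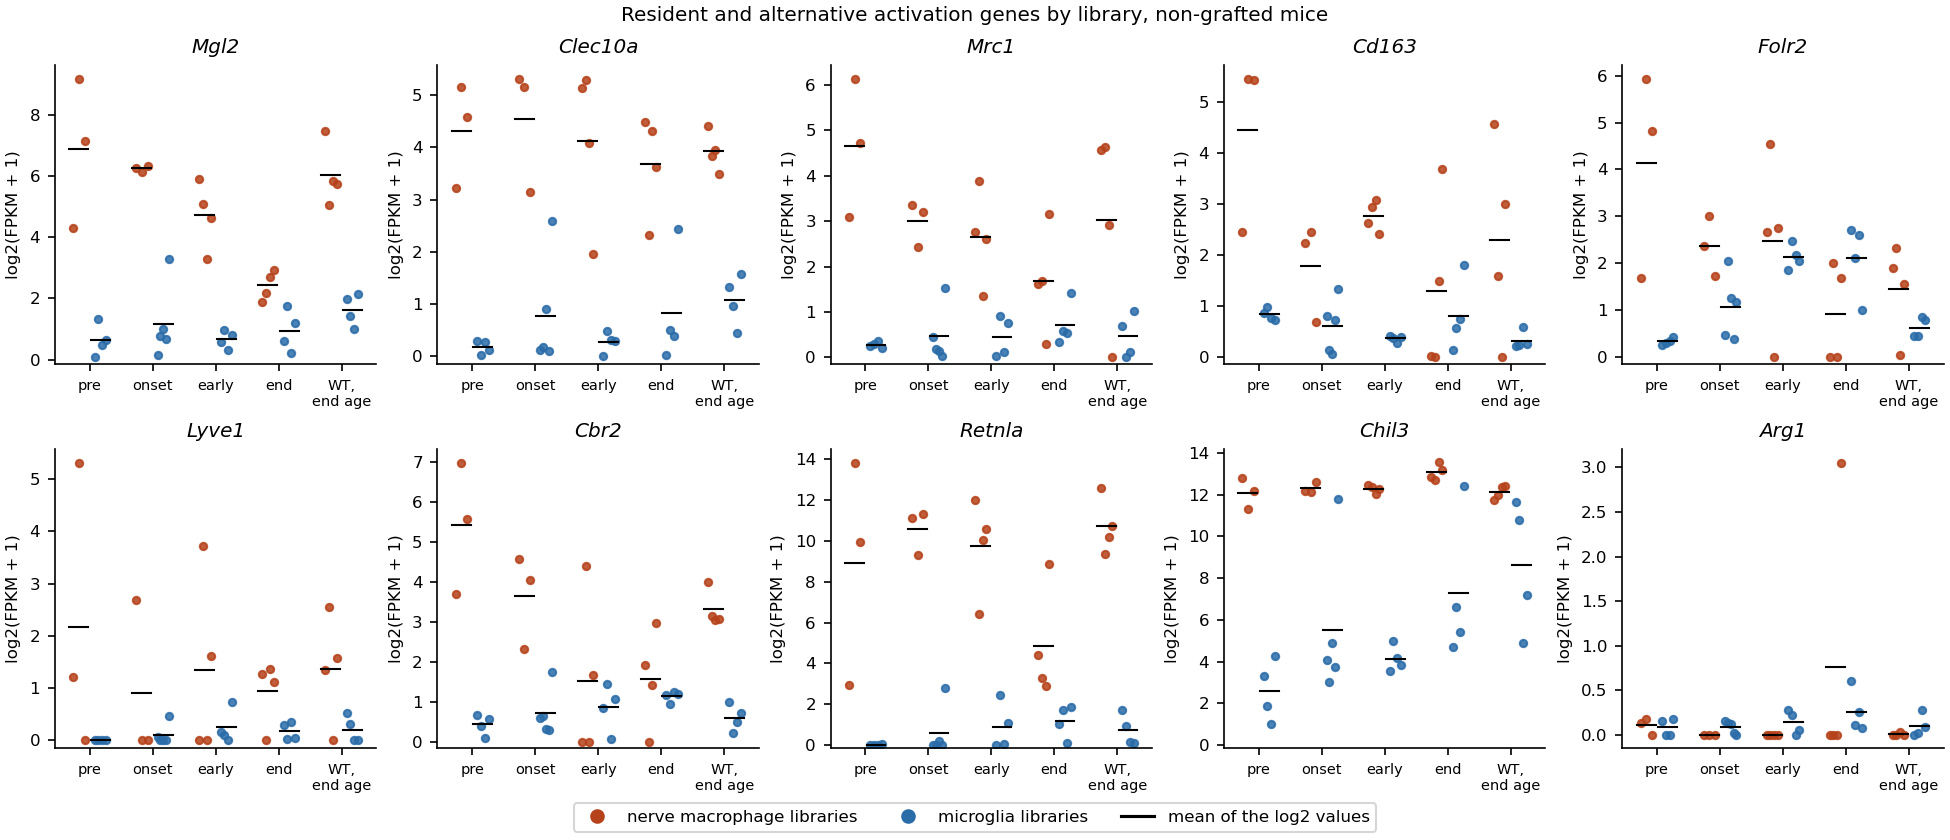
Level of each gene as log2(FPKM + 1) on the vertical axis in every nerve macrophage (red) and microglia (blue) library, by stage of G93A mice and, at the right, in the nerve libraries described as WT and the WT microglia of end-stage age; bars are means of the log2 values. Mgl2 in the nerve falls to between 2.70 and 6.69 FPKM at end stage, and Folr2 in microglia is above its pre-symptomatic range at the early and end stages.

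Mgl2, the galactose-binding lectin, was lowest in the end-stage nerve libraries. It was at 76.3, 69.5 and 79.2 FPKM at onset, at 59.1, 32.6, 8.67 and 23.4 FPKM at the early symptomatic stage, at 2.70, 3.48, 5.52 and 6.69 FPKM at end stage, and at 177, 32.03, 55.5 and 52.1 FPKM in the libraries described as WT. All 4 end-stage libraries were below all libraries of each of the other groups; against the early stage, 1.46% of all genes were so placed. The order of group means was pre-symptomatic (244 ± 290 FPKM, SD, n = 3), described as WT (79.2 ± 66.2, n = 4), onset (75.0 ± 4.97, n = 3), early symptomatic (30.96 ± 21.2, n = 4) and end stage (4.60 ± 1.83, n = 4). All onset libraries lay above all early ones and all end-stage libraries below them, while the other neighbours in that order overlapped. The share of all genes with the order of onset and early libraries was not counted. On the log2(FPKM + 1) scale, which understates changes of low values, the end-stage difference was -4.44 ± 0.79 (SE) from pre-symptomatic, -2.29 ± 0.73 from early and -3.59 ± 0.73 from described as WT. None passed the Benjamini-Hochberg threshold of 0.05 over all 10260 genes in limma, with adjusted p = 0.0871, 1 and 0.151.

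Mgl2 was also compared after each nerve library was set against its own macrophage content. Relative to the mean log2 level of the 10 pan-macrophage markers, Mgl2 was between -3.97 and -2.80 at end stage, between 0.66 and 0.93 in the 4 libraries described as WT, between 0.09 and 0.69 at onset, between -1.97 and -0.04 at the early stage and between -0.84 and 2.07 before symptoms. The end-stage range again lay below all others. With this scaling Mgl2 was lower at end stage than before symptoms (-4.22 ± 0.77, limma adjusted p = 0.00124) and than in the libraries described as WT (-4.13 ± 0.71, adjusted p = 0.000133), with SEs of 0.61 and 0.57 from the gene's own spread, while the median of all genes moved to 0.10 and -0.56. The scaled difference from the early stage did not pass (-1.96 ± 0.71, adjusted p = 1). The 8 dendritic cell markers summed to 23.7 to 95.3 FPKM at end stage, 48.3 to 219 before symptoms and 47.3 to 206 in the libraries described as WT; their part in the Mgl2 result was not tested. The 6 fibroblast markers, with Mgl2, had their lowest median at end stage: they summed to 6.63 to 395.6 FPKM before symptoms, 32.43 to 113.8 at onset, 11.83 to 61.67 at the early stage, 2.13 to 47.21 at end stage and 43.53 to 97.28 in the libraries described as WT. Their part was not tested either.

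The running numbers the submitters gave the libraries are 100 or higher for all pre-symptomatic, 1 onset and 3 described-as-WT nerve libraries and below 100 for all early and end-stage ones, so number and stage cannot be told apart against pre-symptomatic. Among libraries numbered below 100, Mgl2 was at 76.3 and 69.5 FPKM at onset (replicates 1 and 2) and 177 FPKM in the described-as-WT replicate 1, against 6.69 FPKM or less at end stage.

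Retnla, the alternative activation gene with the highest values in single libraries, ranged widely within most groups. It was at 2230, 643 and 2571 FPKM at onset, at 4143, 85.2, 1061 and 1557 FPKM at the early stage, at 20.3, 8.78, 6.35 and 471 FPKM at end stage and at 6193, 664, 1158 and 1726 FPKM in the libraries described as WT. The end-stage libraries were all below those described as WT, and overlapped those of the early stage and the pre-symptomatic stage. The difference was -5.86 ± 1.66 on the log2 scale from described as WT (adjusted p = 0.43 in limma), -4.91 ± 1.66 from early (adjusted p = 1) and -4.03 ± 1.79 from pre-symptomatic (adjusted p = 0.744). Scaled to the macrophage markers, limma called Retnla lower in all 3 comparisons, but in that fit its SE of 0.81 to 0.87 was borrowed almost wholly from other genes (prior degrees of freedom 197 against 6.72), and its own spread gives an SE of 1.95 to 2.11. Eosinophil markers, 8 genes, summed to 110 to 1346 FPKM at end stage and 124.5 to 638 FPKM in the libraries described as WT.

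Chil3 was high in all nerve libraries and highest on average at end stage. It was at 7455, 6654, 12014 and 9338 FPKM at end stage, against 5624, 5338, 4190 and 4900 at the early stage and 3469, 4025, 5328 and 5424 in the libraries described as WT. All end-stage libraries lay above all those of the early stage and all those described as WT, as for 0.965% and 1.31% of all genes. The differences were 0.79 ± 0.27 and 0.95 ± 0.27 on the log2 scale, and neither passed (adjusted p = 1 and 0.43 in limma). Pre-symptomatic libraries, at 6993, 2541 and 4663 FPKM, overlapped the end-stage ones, with a difference of 0.99 ± 0.29 that did not pass (limma adjusted p = 0.512). The neutrophil markers summed to 113370 to 214657 FPKM at end stage, 170491 to 177945 FPKM at the early stage and 152678 to 191750 FPKM in the libraries described as WT. With the mean log2 level of these markers as a term, a model added after seeing the data, Chil3 again did not pass against the early stage or described as WT.

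Of the remaining receptors, Cd163, Mrc1 and Folr2 were highest in pre-symptomatic replicates 2 and 3. Cd163 was at 4.49, 42.9 and 42.2 FPKM before symptoms, 3.70, 4.43 and 0.60 at onset, 5.17, 6.72, 7.49 and 4.29 at the early stage, and 0.01, 0, 1.81 and 11.9 at end stage. The onset libraries were all below the pre-symptomatic ones, as for 5.77% of all genes, and the end-stage libraries spread on both sides of the lowest of these. Mrc1 was at 7.55 to 68.8 FPKM before symptoms and 0.23 to 7.97 FPKM at end stage, and Folr2 at 2.21 to 59.7 and 0 to 3.04 FPKM. Their end-stage differences from pre-symptomatic were -3.15 ± 1.01 for Cd163, -2.96 ± 0.97 for Mrc1 and -3.22 ± 1.00 for Folr2, with adjusted p from 0.533 to 0.565. The 8 Schwann cell markers were also high in pre-symptomatic replicates 2 and 3, at 4054 and 886.7 FPKM against 27.51 in replicate 1, and at 38.67 to 2604 FPKM at end stage; their part in these values was not tested.

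Cbr2, the carbonyl reductase, was at 12.1, 125.1 and 46.8 FPKM before symptoms and 2.84, 0, 1.70 and 6.84 FPKM at end stage, below every pre-symptomatic library (-3.84 ± 0.96, adjusted p = 0.401). Clec10a, the lectin next to Mgl2, was at 8.31 to 34.6 FPKM before symptoms and 3.98 to 21.4 FPKM at end stage, a difference of -0.63 ± 0.73 with overlapping libraries. Lyve1 was listed at 0 in 6 of the 18 nerve libraries and was highest in pre-symptomatic replicate 2, 38.7 FPKM. The 3 lymphatic endothelial markers, Prox1, Flt4 and Pdpn, summed to 1.44 FPKM in that library, with Prox1 at 0.02 and Flt4 at 0.07 FPKM. They summed to 0.05 and 0.02 FPKM in pre-symptomatic replicates 1 and 3, and their part in the Lyve1 values was not tested. Arg1 was listed at 0 in 14 of the 18 libraries and reached 7.30 FPKM in end-stage replicate 4, and it was the 1 gene that did not reach a mean of 1 FPKM and was not tested in the nerve.

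Of the 9 genes tested in nerve macrophages, 0 passed in any of the 5 comparisons, where limma called 0% of all genes in 4 and 0.00975% (1 gene) from pre-symptomatic to end stage. At an unadjusted p under 0.05, counts were 1 of 9 at onset, 2 at the early stage and 7 at end stage against pre-symptomatic, where 4.62%, 5.21% and 6.54% of all genes did so, and 3 of 9 for end stage against early (3.26%) and against described as WT (6.45%). Of the 7 at end stage, 6 were lower and Chil3 was higher, and each of the other sets of 3 held Mgl2 and Retnla lower and Chil3 higher. Every end-stage library lay below every pre-symptomatic one for 2 of 9 genes (Mgl2 and Cbr2; 4.81% of all genes) and below every library described as WT for 3 (with Retnla; 2.27%). The median change over the 9 genes was -1.28 at onset, -1.66 at the early stage and -3.15 at end stage from pre-symptomatic, against -0.08, -0.09 and -0.12 over all genes. The 3 comparisons at end stage share the same 4 end-stage libraries, and the 3 against pre-symptomatic share those 3 libraries. The genes were chosen with the contrast of nerve and microglia known, and the pre-symptomatic nerve libraries are part of that contrast. Counts and medians against pre-symptomatic are thus not independent of the choice. The 9 genes are not separate observations either, as some of them varied together.

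Pre-symptomatic replicate 1 decided the count of calls. Without it, 5 of the 9 genes passed from pre-symptomatic to end stage, where 0.594% of all genes did: Mgl2 fell by 5.73 (adjusted p = 0.000579 in limma), Retnla by 7.01 (0.0379), Cbr2 by 4.69 (0.0457) and Folr2 by 4.45 (0.048), while Chil3 rose by 1.33 (0.0396). That replicate had Retnla at 6.73 FPKM and S100a8 at 62869 FPKM, against 24808 and 55648 FPKM of S100a8 in the other two. Without replicate 2 in its place, 0 passed, and the Mgl2 difference was -3.3 ± 0.73. These fits too compare with libraries whose values were known when the genes were chosen.

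The genes in question did not all vary together across the 18 nerve libraries. As a description over libraries that also differ in macrophage and neutrophil content, Pearson's r of log2 values was 0.78 between Mgl2 and Retnla, 0.71 between Mgl2 and Cbr2, and -0.76 between Mgl2 and Chil3. The genes most like each, among 10259 others, were Pepd, Mfap5 and Gltp for Mgl2 (r = 0.92, 0.88 and 0.87), Aldh1a2, Ccl24 and Myo7a for Retnla (0.84, 0.80 and 0.79), and Chil4, Serpinb1a and Ndufb11 for Chil3 (0.94, 0.76 and 0.75). For Cbr2 they were Snx2, Fcgrt and Col4a1 (0.86, 0.83 and 0.82), for Folr2 Tln2, Chp2 and Pigh (0.83, 0.82 and 0.82), for Cd163 Znhit6, Sepp1 and Arrdc2 (0.81, 0.79 and 0.76), for Mrc1 Slc15a2, Rab14 and Prx (0.79, 0.78 and 0.77), for Lyve1 Serp2, Rbbp9 and Timm8b (0.80, 0.80 and 0.77), and for Clec10a Ms4a6b, Ccr2 and Tmem106a (0.78, 0.77 and 0.76).

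In microglia, Folr2 rose with disease. It was at 0.20, 0.23, 0.28 and 0.35 FPKM before symptoms, at 0.39, 3.17, 1.41, 0.30 and 1.26 FPKM at onset, at 2.63, 4.57, 3.5 and 3.14 FPKM at the early stage and at 5.51, 3.31, 5.06 and 1.02 FPKM at end stage. All early and all end-stage libraries were above all pre-symptomatic ones, as for 21.4% and 23.1% of all genes. WT microglia of end-stage age had 0.36, 0.36, 0.80 and 0.74 FPKM, below every end-stage G93A library (5.97% of all genes had that order), and B6 microglia 0.32, 0.17, 0.33 and 1.14 FPKM. Folr2 rose by 1.80 ± 0.31 at the early stage (limma adjusted p = 0.000271) and by 1.77 ± 0.31 at end stage (adjusted p = 0.000151) from pre-symptomatic, and was higher at end stage than in WT (1.47 ± 0.31, adjusted p = 0.00431) and B6 mice (1.57 ± 0.31, adjusted p = 0.000569). Its group means were 1.306, 3.46 and 3.725 FPKM in onset, early and end-stage G93A microglia. In the other microglia groups they were 0.265 to 0.565 FPKM. Folr2 thus reached the filter of 1 FPKM only through groups where it was high, and these calls are not independent of that filter.

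The content of macrophage-lineage RNA also rose in G93A microglia. The 10 pan-macrophage markers summed to 1597 to 6976 FPKM before symptoms, 12152 to 21774 FPKM at the early stage and 9089 to 25254 FPKM at end stage. In WT microglia of end-stage age they summed to 5923 to 16982 FPKM, with Folr2 at 0.36 to 0.80 FPKM. B6 microglia of that age had 2629 to 12764 FPKM of the markers, with Folr2 at 0.17 to 1.14 FPKM. Scaled to those markers, Folr2 differed from pre-symptomatic by -0.29 at the early stage and -0.44 at end stage and from B6 by -0.04, the opposite sign with no call, and from WT by 1.02 with adjusted p = 0.684. That scaling moved the median of all genes to -2.04, -2.18, -1.61 and -0.59 in the same 4 comparisons. The log2(FPKM + 1) scale understates the rise of Folr2, at 0.20 to 0.35 FPKM before symptoms, and hardly that of the markers. Medians before symptoms, at the early stage and at end stage were 0.255, 3.32 and 4.185 FPKM for Folr2. For the marker sum they were 3147, 15142 and 21932 FPKM. The scaled signs thus cannot tell whether Folr2 rose or fell per macrophage RNA. In a fit of end-stage G93A and WT libraries alone, the Folr2 difference of 1.47 had adjusted p = 0.0593.

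Chil3 in microglia moved with neutrophil RNA. It was at 25.3, 96.0, 41.9 and 5487 FPKM at end stage against 8.97, 2.66, 1.02 and 17.9 FPKM before symptoms, all above, and rose by 4.68 ± 1.72 (limma adjusted p = 0.024). In end-stage replicate 4, the highest, S100a8 was at 20413 FPKM, and without that library the Chil3 difference was 2.97 with adjusted p = 0.133. The call was also lost without pre-symptomatic replicate 2 (4.43, adjusted p = 0.0571) or 3 (4.15, adjusted p = 0.0652). Without all 4 microglia libraries high in S100a8, a choice made after seeing the data, the difference was 2.97 with adjusted p = 0.0294. With the mean log2 level of the neutrophil markers as a term, a model added after seeing the data, it was 0.47 (adjusted p = 0.184). Over all 33 non-grafted microglia libraries, Chil3 was between 1756 and 5487 FPKM in the 4 with S100a8 above 10000 FPKM and between 0.70 and 192 FPKM in the other 29. Against controls of end-stage age, limma did not call Chil3 in end-stage G93A microglia. The differences were -1.33 ± 1.72 from WT (adjusted p = 0.671) and 2.66 ± 1.72 from B6 (adjusted p = 0.202).

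**Figure D2:**
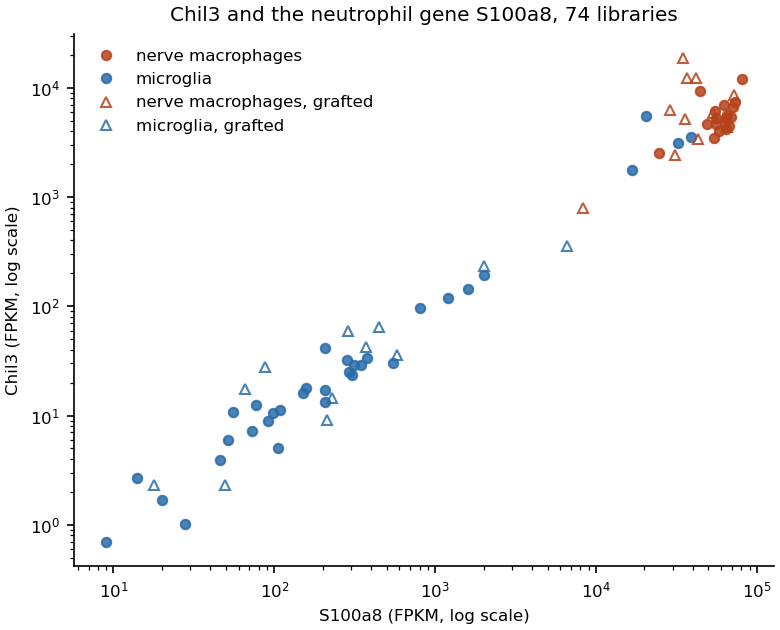
Chil3 against S100a8 in all 74 libraries, both in FPKM on log axes; circles are non-grafted and triangles grafted libraries. Chil3 lies between 3.64% and 26.9% of S100a8 in the non-grafted microglia and between 6.45% and 21.2% in the non-grafted nerve libraries.

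The other genes stayed low in microglia. A mean of 1 FPKM was reached by 4 of the 10 genes, Mgl2, Folr2, Retnla and Chil3, and these 4 were tested. Folr2 reached it only through G93A libraries from onset on, so its place in the counts below is not independent of the filter. Mgl2 was at or below 3.38 FPKM in all non-grafted microglia libraries except onset replicate 5, where it was at 8.68 FPKM, and in that library, with S100a8 at 39129 FPKM, Clec10a was at 5.01 and Retnla at 5.89 FPKM. Retnla was highest in B6 microglia of end-stage age, at 11.3 and 9.92 FPKM in replicates 4 and 1. Arg1 was at or below 0.52 FPKM in every non-grafted microglia library. Of the 4 genes tested, 1 passed from pre-symptomatic to early (35.2% of all genes), 2 from pre-symptomatic to end stage (55.9%), and 1 at end stage against WT (7%) and against B6 (46.2%), each of them higher, where 19.2%, 24.8%, 2.81% and 18.3% of all genes were called higher. In the other 4 microglia comparisons 0 passed in limma, with 25.4%, 0%, 4.31% and 55.1% of all genes called for onset against pre-symptomatic, end stage against early, onset against WT and onset against B6. At an unadjusted p under 0.05 there was 1 of 4, Folr2, in each onset comparison (48.2%, 34.7% and 62.5% of all genes against pre-symptomatic, WT and B6) and 0 of 4 for end stage against early (2.89%).

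Folr2 moved in opposite directions in the 2 tissues, up in microglia by 1.77 ± 0.31 and by -3.22 ± 1.06 in the nerve, where the fall alone did not pass. The nerve change minus the microglia change from pre-symptomatic to end stage, in 1 fit of all 51 libraries, was -4.98 ± 0.92 for Folr2 (limma adjusted p = 0.000706), and -2.55 (adjusted p = 0.036) when scaled to the pan-macrophage markers, where the median of all genes was 2.25. Folr2 was itself at 0.20 to 0.35 FPKM in pre-symptomatic microglia, so that it could rise but hardly fall there. With a separate spread for each cell type, chosen after seeing the data, its adjusted p was 0.00554. Like the other genes, Folr2 was chosen with the contrast of nerve and microglia known. That contrast before symptoms is part of this difference, so the call is not an independent test.

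For the other genes this difference shows little beyond the nerve change. They too were chosen with the contrast of nerve and microglia known. In pre-symptomatic microglia Mgl2 was at 0.07 to 1.5 FPKM, Retnla at 0 to 0.05, Cbr2 at 0.08 to 0.61, Mrc1 at 0.16 to 0.28 and Cd163 at 0.64 to 0.98 FPKM, where no matching fall was possible. Cbr2, Mrc1, Cd163, Clec10a and Lyve1 reached a mean of 1 FPKM in that fit only through the nerve libraries. The fit called 6 of the 9 genes lower and 19.8% of all genes, 10.3% lower, and nothing is read from that count. The values were -4.75 for Mgl2, -4.54 for Cbr2, -3.40 for Mrc1, -3.12 for Cd163 and -5.19 for Retnla. With a separate spread for each cell type, Cd163 and Retnla did not pass (adjusted p = 0.0611 and 0.104), and leaving out 1 library at a time lost the Retnla call in 11 of 15 fits and the Cd163 call in 2 of 15.

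**Figure D3:**
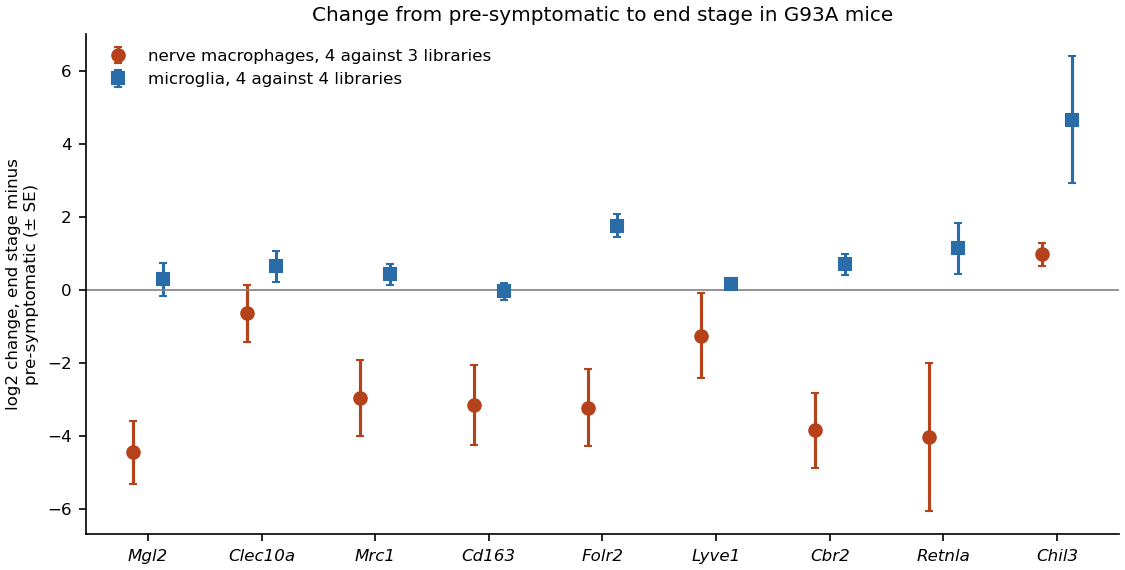
Change of each tested gene from pre-symptomatic to end stage as a difference of log2(FPKM + 1) ± SE on the vertical axis, in nerve macrophages (red circles) and microglia (blue squares) of G93A mice, each cell type with its own spread. Mgl2 changes by -4.44 in the nerve and 0.30 in microglia, where it starts at 0.07 to 1.5 FPKM and cannot fall far, and Folr2 by -3.22 and 1.77.

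In grafted mice the genes were compared between G93A and WT marrow at the same stage and between stages with the same marrow, 8 comparisons in all. Retnla in nerve macrophages at end stage was at 7279, 435 and 3336 FPKM after WT marrow and at 4.48, 2.60 and 14.3 FPKM after G93A marrow. All WT-marrow libraries were above all G93A-marrow ones, as for 9.03% of all genes, by 8.36 ± 2.60 on the log2 scale, and the difference did not pass (limma adjusted p = 0.18). At the early stage the order did not hold: Retnla was at 1489 and 12.8 FPKM after WT marrow and 48069, 398 and 3.3 FPKM after G93A marrow. At end stage the eosinophil markers summed to 491 to 7592 FPKM after WT marrow and 69.0 to 1225 FPKM after G93A marrow, with overlap. Epx, eosinophil peroxidase, was at 524 FPKM in WT-marrow replicate 3. The part of these markers in the Retnla values was not tested.

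Mgl2 in grafted nerve libraries was at 264, 11.5 and 17.5 FPKM (G93A marrow, early), 24.2, 13.6 and 2.15 FPKM (G93A marrow, end stage), 9.84 and 20.6 FPKM (WT marrow, early) and 21.1, 19.4 and 31.1 FPKM (WT marrow, end stage). All 4 ranges overlapped. Chil3 was between 789 and 18729 FPKM in those libraries. G93A-marrow early replicate 1 held the highest Mgl2 and Retnla and the lowest S100a8, 8355 FPKM, of the grafted nerve libraries. Arg1 reached 27.1 FPKM in 1 library, G93A-marrow end-stage replicate 3, and was at or below 6.07 FPKM in the others.

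In grafted microglia, Folr2 was at 3.37, 4.24 and 4.33 FPKM after G93A marrow and 1.75, 1.42 and 0.86 FPKM after WT marrow at the early stage, without overlap, as for 5.65% of all genes (-1.10 ± 0.29, limma adjusted p = 0.407). At end stage it was at 3.71, 3.15 and 3.44 FPKM after G93A marrow and 2.03, 2.65 and 3.35 FPKM after WT marrow, with overlap (-0.28 ± 0.29, adjusted p = 1). Arg1 was at 0.05, 7.80 and 5.68 FPKM in early G93A-marrow microglia and at or below 0.54 FPKM in the other 9 grafted microglia libraries. Its early difference, WT minus G93A marrow, was -1.69 ± 0.62 with overlap (limma adjusted p = 0.407), and from early to end stage with G93A marrow it was -1.82 ± 0.62 (adjusted p = 1). Arg1 reached the filter of 1 FPKM only through early G93A-marrow microglia, with a group mean of 4.51 FPKM. In the other grafted microglia groups the mean was 0.117 to 0.243 FPKM. Its place in the microglia counts below is thus not independent of the filter. Retnla was at or below 0.05 FPKM in early G93A-marrow microglia and at 0.22, 20.6 and 0.82 FPKM after WT marrow. None of the 9 genes tested in nerve macrophages and the 6 tested in microglia passed in any of the 8 grafted comparisons in limma, nor did any other gene (0% called in each). At an unadjusted p under 0.05 there were 1, 1, 2 and 0 of 9 in the nerve (WT against G93A marrow at early and end stage, then end stage against early for G93A and WT marrow), where 2.38%, 15.4%, 4.22% and 8.22% of all genes stood, and 2, 0, 1 and 1 of 6 in microglia (Folr2 and Arg1, then Arg1, then Folr2), where 11%, 0.476%, 0.853% and 9.07% stood.

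**Figure D4:**
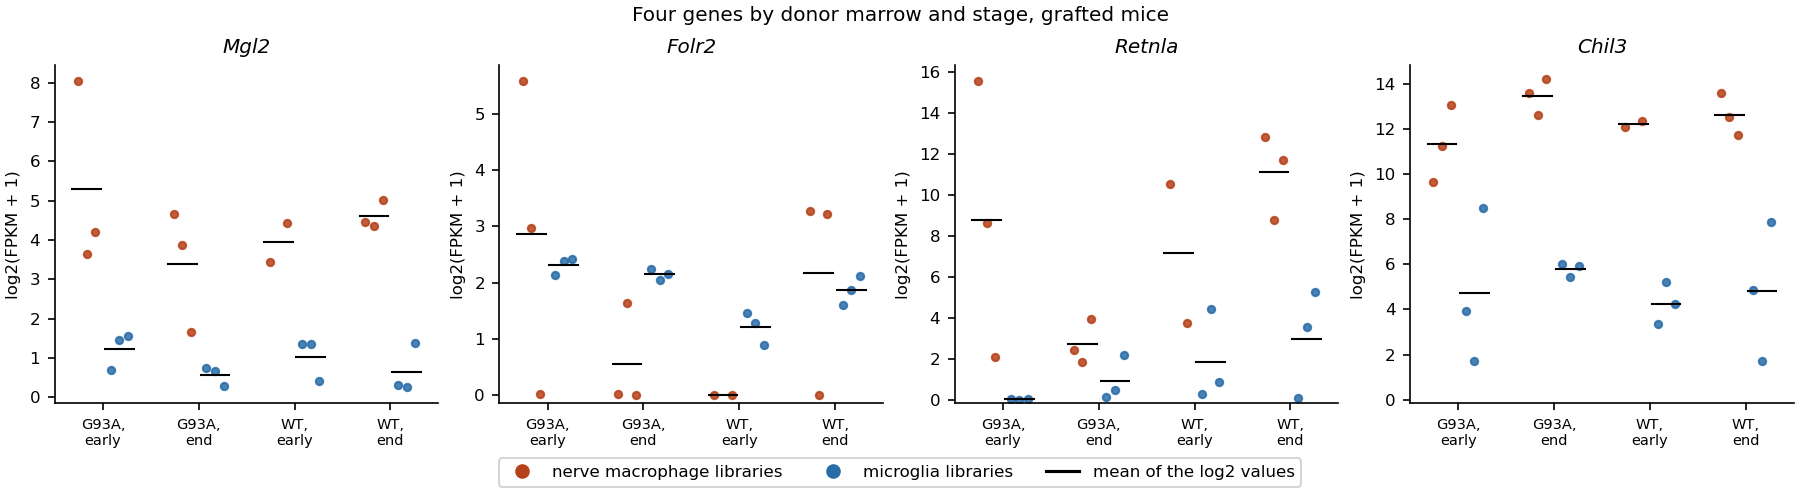
Mgl2, Folr2, Retnla and Chil3 as log2(FPKM + 1) in grafted mice, by donor marrow and stage on the horizontal axis, for nerve macrophages (red) and microglia (blue); each point is a library and bars are means of the log2 values. Retnla in the nerve at end stage is at 435 to 7279 FPKM after WT marrow and 2.60 to 14.3 FPKM after G93A marrow.

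Other genes of the same programmes were taken as lists. In nerve macrophages, 0 of 16 tested genes of a list of 17 other resident macrophage genes, 0 of 16 of 22 other interleukin-4 and alternative activation genes and 0 of 6 of 7 arginine-use genes were called in any of the 5 comparisons. The median changes from pre-symptomatic to end stage were -0.15, 0.25 and -0.16, against -0.12 over all genes. In microglia, where the pan-macrophage sums given above also rose and their part was not tested, from pre-symptomatic to end stage 6 of 11 other resident genes were called higher and 1 lower, 6 of 9 interleukin-4 and activation genes higher and 1 lower, and 2 of 6 arginine-use genes higher, where 55.9% of all genes were called and 24.8% were called higher. Wfdc17, a secreted inhibitor made by macrophages, rose from 2.50 ± 1.41 (SD, n = 4) to 325 ± 108 FPKM (n = 4; 6.58 ± 0.79 on the log2 scale, limma adjusted p = 4.08e-06), and Colec12, a scavenger receptor, from 2.92 ± 1.21 to 61.6 ± 22.2 FPKM (3.95 ± 0.56, adjusted p = 1.66e-05). Il4ra, the interleukin-4 receptor chain, rose from 15.7 ± 11.1 to 38.6 ± 4.14 FPKM (1.47 ± 0.54, adjusted p = 0.0235) and Stat6 from 16.5 ± 10.4 to 44.6 ± 2.26 FPKM (1.57 ± 0.53, adjusted p = 0.0147), in the microglia libraries in which Arg1 was at or below 0.52 FPKM and Retnla at or below 2.61 FPKM. Egr2, a factor induced in alternatively activated macrophages, rose by 3.35 ± 0.44 (adjusted p = 8.57e-06). At end stage against WT, Il4ra and Stat6 were not called in limma. Against B6 they were higher, by 1.35 ± 0.54 (adjusted p = 0.0415) and 1.42 ± 0.53 (adjusted p = 0.0304). Against WT, Colec12 was higher by 4.26 ± 0.56 (adjusted p = 5.02e-05) and Wfdc17 by 2.83 ± 0.79 (adjusted p = 0.028). Dab2 was higher by 1.90 ± 0.31 (adjusted p = 0.000414) and Egr2 by 1.85 ± 0.44 (adjusted p = 0.0112), while Igfbp4 fell by 1.67 ± 0.29 (adjusted p = 0.000743). In grafted mice 0 genes of these lists were called.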

How the data were processed

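RNA-seq values of CD11b-selected cells from 74 libraries were read from 2 tables of FPKM as deposited by the authors, with 58976 features each on mm10, per the file headers. FastQC, Picard, SAMtools, DESeq2 and R 3.2.5 are named in the submitters' processing notes; neither the aligner nor the counter is stated there, in the labels or in the headers. Features without a symbol were left out. FPKM sums of 483480 to 986659 are not depths, so counting error could not be given, and no count model was run here. Differences were tested on log2(FPKM + 1) with limma 3.58.1 (R 4.3.3; empirical Bayes with a mean trend, two-sided), in genes with a mean of at least 1 FPKM over the libraries of a fit: 18 nerve, 33 microglia, 11 and 12 grafted, and all 51 non-grafted for the difference between cell types. The p-values were adjusted by Benjamini-Hochberg over all genes of the fit (threshold 0.05), and the fits were checked on simulated data. All 10 genes are named, up to 4 called genes of each other list, and the 3 genes most like each. Genes and lists were chosen with earlier results of these data known. Alternatives changed the pseudocount, filter, scaling, libraries, weights and replicate block.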

Additional observations from a re-analysis of the deposited data

Results flagged for a closer look

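Arg1 in nerve macrophages at end stage was at 7.30 FPKM in replicate 4 and listed at 0 in the other 3, a sample far from its group. In replicate 4, 5 erythroid markers summed to 164625 FPKM, against 4763 to 35524 FPKM in the other 3. The replicate was the highest end-stage nerve library for Mgl2, Cbr2, Mrc1, Cd163 and Retnla, and not for Clec10a, Folr2, Lyve1 or Chil3. The part of erythroid RNA in these values was not tested. Cbr2 in the libraries described as WT was at 15.14 FPKM in replicate 1 and between 7.34 and 7.96 FPKM in the others. In G93A microglia at onset, replicate 5 stood far from the other 4 libraries for 3 genes: Chil3 was at 3569 FPKM against 7.23 to 29.03, Mgl2 at 8.68 FPKM against 0.10 to 1.01, and Retnla at 5.89 FPKM against 0 to 0.14. That library had S100a8 at 39129 FPKM. In all, 51 gene and group combinations were checked and 5 stood apart, where chance gives about 1 in 20.

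A limma test of the nerve change minus the microglia change from before symptoms to end stage gave -4.98 for Folr2, -4.75 for Mgl2, -4.54 for Cbr2, -3.40 for Mrc1, -3.12 for Cd163 and -5.19 for Retnla on the log2 scale. All 6 were chosen with the contrast of nerve and microglia known. They were near 0 in pre-symptomatic microglia and could not fall there, and Cbr2, Mrc1 and Cd163 were tested only through their nerve values. With a separate spread for each cell type, Cd163 and Retnla did not pass (adjusted p = 0.0611 and 0.104).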

How the results depend on the processing

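Counts of the 10 genes called were within 1.5 times the reported count in 168 of 186 results and alternatives other than leaving out libraries, and moved in 18. Scaled to pan-macrophage markers, counts from nerve macrophages became 2 for end stage against pre-symptomatic, 1 against early and 2 against described as WT, those from microglia 1 for end stage against pre-symptomatic, 0 against WT and 2 for onset against B6, that for WT against G93A marrow in grafted nerve at end stage 1, and that for the difference between cell types 2. Folr2 in microglia then changed sign, to -0.29 (early against pre-symptomatic), -0.44 (end stage) and -0.036 (end stage against B6). The log2(FPKM + 1) scale understates the rise of its low values and hardly that of the markers, so a fall per macrophage RNA is not shown. With a pseudocount of 0.1, 1 gene was called at onset against pre-symptomatic in microglia. With library quality weights, counts in microglia were 1, 1 and 1 for onset against pre-symptomatic, WT and B6 and 2 for end stage against WT, and in grafted microglia 4 for WT against G93A marrow at the early stage and 2 for end stage against early with WT marrow. With the neutrophil term, added after seeing the data, microglia counts were 1 for end stage against pre-symptomatic and 2 against B6. In fits of the compared groups alone, 0 were called for end stage against WT in microglia. The cause of these shifts was not tested.

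Leaving out 1 library at a time, counts in nerve macrophages were 0 to 5 for end stage and 0 to 1 for the early stage against pre-symptomatic. In microglia they were 0 to 1 for each onset comparison (1 without onset replicate 1 or 4) and 1 to 2 for end stage against pre-symptomatic. They were 0 to 1 for WT against G93A marrow at the early stage in grafted microglia (1 without WT-marrow replicate 1), and 4 to 6 for the difference between cell types. With the replicate number as a block, the counts were those reported in all comparisons, such as 6 for the difference between cell types. Same-numbered libraries deviated together with a mean correlation of 0.01 in the nerve and -0.03 in microglia, so the numbers were not taken to pair libraries.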
